A study of Mus musculus with 20 samples.

Results

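The 9 genes described here are Ptprc, Cd53, Coro1a, Cd72, Mme, Ebf1, Pax5, Cd79a and Cd79b, a set of B-lineage and leukocyte genes measured by poly(A)-selected RNA sequencing of mouse testis. They were taken by symbol from a count table of 22066 gene symbols. Each of the 9 had counts in at least 1 library, and 7 of them were among the 16534 genes with enough counts to be tested, while Cd79a and Cd79b were not. All 20 samples came from male NSG (NOD scid gamma) mice, 6 weeks old when the protocol began, with 4 samples in each of 5 groups. NC mice were normal controls, and ALL mice carried B-cell acute lymphoblastic leukaemia (B-ALL), set up by tail-vein injection of 400000 human cells from a patient-derived xenograft. VCR mice received vincristine sulfate, a tubulin-binding drug, at 0.5 mg/kg into the peritoneum once a week for 3 weeks from day 69. Low-VCR and High-VCR mice carried the leukaemia, received the same drug course, and had low or high numbers of leukaemia cells in the blood. Groups without the drug received saline. The labels of VCR samples name no injected cells, and the labels do not say whether each sample is a separate mouse, so p-values below reflect how much the samples of a group vary, which may be technical. The testis was sampled whole and labelled as mixed cells. Fewer cells of a type and less RNA per cell cannot be told apart in such samples.

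NSG mice lack mature B, T and NK cells and keep myeloid cells, among them the macrophages that are the main resident leukocytes of the testis. Ptprc encodes CD45, the receptor tyrosine phosphatase carried by nearly all nucleated blood cells, Cd53 is a tetraspanin of leukocytes, and Coro1a is an actin-binding coronin of leukocytes. Cd72 encodes a C-type lectin-like inhibitory receptor best known from B cells and also found on macrophages. Mme encodes neprilysin (CD10), a surface peptidase used to mark common B-ALL and also made by stromal and epithelial cells. Ebf1 and Pax5 are transcription factors that set B-cell identity. Ebf1 also acts in stromal and fat-forming cells, and Pax5 is known to be transcribed in adult testis. Cd79a and Cd79b encode the signalling chains of the B-cell receptor and are among the most lineage-restricted genes of the set. Vincristine blocks mitosis, and dividing germ cells are among the cells it can damage.

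Library totals lay between 9.43 and 16.4 M (mega) counts, so that 3 counts correspond to 0.167 to 0.365 CPM (counts per M counts, scaled by edgeR's TMM factors). Treated libraries stood apart from untreated ones. The summed level of 20 spermatid genes was 27000 to 34900 CPM in the 8 untreated libraries and 435 to 21700 CPM in the 12 treated ones, and VCR 1 was lowest. The summed level of 22 macrophage and monocyte genes was 276 to 347 CPM untreated and 784 to 1690 CPM treated, and that of 22 Sertoli cell genes 1120 to 1360 and 3280 to 5550 CPM. The share of counts from mitochondrial genes was 1.78% to 2.60% untreated and 4.69% to 11.9% treated. Below, "rose" and "fell" are used where edgeR's quasi-likelihood test, adjusted by Benjamini and Hochberg's method for all 16534 genes, gave an adjusted p under 0.05. A value written with ± after "log2 fold change" is that change and its standard error. CPM carries no correction for gene length, so levels are compared between samples and not between genes.

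Start-site sequences of the members show one letter pattern, shared by several leukocyte genes and by many other promoters. RefSeq (GRCm38.p6, an older build than the GRCm39 named for the counts) gave 13 promoter windows, from 250 bases before to 50 after the start site, for 8 of the 9 genes, without Cd79b. The string GAGGAA, the core of sites of the ETS and PU.1 type that are common in myeloid promoters, was searched on both strands. It was found in 5 of the 13 windows and in 28.3% of all 32851 windows. The 5 were the windows of Cd53, Cd72 and Cd79a and 1 of 2 windows each of Ptprc and Ebf1, and those of Coro1a, Mme and Pax5 held none. Cd53 held 2 matches, at -39 on the strand of the gene and at 8 on the other strand, counted from the start site. The match of Cd72 lay at -47 on the other strand and that of Ptprc at -158 on the gene's strand. TGACGTCA, the full cyclic AMP response element, was in none of the 13 windows and in 1.79% of all windows. The palindrome of EBF-type sites was likewise in none of the 13 and in 0.904% of all windows. The windows of 3 leukocyte genes with a match and of Pax5, which has none, follow 5′ to 3′, each on the minus strand, with matches to GAGGAA or its reverse complement in capitals.
Cd53, chr3:106790100-106790399: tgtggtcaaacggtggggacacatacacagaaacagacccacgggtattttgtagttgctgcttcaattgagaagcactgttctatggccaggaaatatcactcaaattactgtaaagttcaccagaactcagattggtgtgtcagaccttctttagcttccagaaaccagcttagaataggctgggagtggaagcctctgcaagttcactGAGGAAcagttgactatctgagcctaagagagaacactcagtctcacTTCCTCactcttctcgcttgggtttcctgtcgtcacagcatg
Cd72, chr4:43454577-43454876: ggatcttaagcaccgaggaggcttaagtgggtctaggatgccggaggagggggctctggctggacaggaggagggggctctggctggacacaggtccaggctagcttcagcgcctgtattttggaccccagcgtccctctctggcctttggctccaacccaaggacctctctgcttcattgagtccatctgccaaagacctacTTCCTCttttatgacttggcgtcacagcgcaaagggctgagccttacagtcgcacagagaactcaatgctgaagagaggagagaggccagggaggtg
Ptprc, chr1:138175256-138175555: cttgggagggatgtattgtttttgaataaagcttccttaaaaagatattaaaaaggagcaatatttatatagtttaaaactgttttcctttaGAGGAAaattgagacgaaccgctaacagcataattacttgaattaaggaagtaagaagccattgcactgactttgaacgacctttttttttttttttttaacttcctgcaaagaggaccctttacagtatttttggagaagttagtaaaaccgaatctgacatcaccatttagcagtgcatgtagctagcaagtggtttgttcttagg
Pax5, chr4:44710645-44710944: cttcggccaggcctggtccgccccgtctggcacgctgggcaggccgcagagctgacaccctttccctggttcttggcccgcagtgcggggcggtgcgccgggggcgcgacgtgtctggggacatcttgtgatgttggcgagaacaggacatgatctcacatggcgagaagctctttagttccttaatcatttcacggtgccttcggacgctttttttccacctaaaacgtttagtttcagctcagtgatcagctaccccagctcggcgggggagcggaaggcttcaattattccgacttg

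The pan-leukocyte genes Cd53 and Coro1a were low in every untreated testis and several-fold higher in every treated one. Cd53 was at 0.487, 1.29, 0.873 and 0.525 CPM in NC libraries 1 to 4 and at 1.31, 1.21, 1.46 and 1.32 CPM in ALL. The VCR libraries held 10.8, 8.81, 6.36 and 7.30 CPM, those of Low-VCR 5.52, 5.60, 4.72 and 6.32, and those of High-VCR 9.90, 5.19, 6.84 and 8.37. The 12 treated libraries, with 72 to 150 counts, did not overlap the 8 untreated ones, with 4 to 15 counts. How many of all tested genes separate these libraries was not counted. Separation, here and below, is therefore not read as particular to a gene. Cd53 rose in VCR relative to NC (log2 fold change 3.39 ± 0.28, adjusted p 3.83e-08). Against ALL it rose in Low-VCR (2.05 ± 0.27, adjusted p 6.85e-06) and High-VCR (2.50 ± 0.26, adjusted p 3.26e-07). These correspond to 10.5-fold, 4.15-fold and 5.67-fold. In order of group means, VCR (8.32 ± 1.95 CPM, SD, n = 4) stood above High-VCR (7.58 ± 2.02), Low-VCR (5.54 ± 0.651), ALL (1.33 ± 0.103) and NC (0.794 ± 0.374). Only the step from Low-VCR to ALL passed the test among these neighbours.

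Coro1a showed the same division of the libraries. It had 15, 18, 14 and 19 counts in NC and 12, 19, 15 and 8 counts in ALL, or 0.883 to 1.94 CPM. The VCR libraries held 15.5, 14.4, 8.13 and 9.89 CPM, those of Low-VCR 7.25, 7.36, 7.94 and 8.71, and those of High-VCR 9.90, 5.97, 7.16 and 7.98. No treated library was as low as the highest untreated one. Coro1a rose 7.34-fold in VCR relative to NC (log2 fold change 2.88 ± 0.25, adjusted p 4.71e-08). Against ALL it rose 5.55-fold in Low-VCR (2.47 ± 0.25, adjusted p 1.18e-06) and 5.51-fold in High-VCR (2.46 ± 0.25, adjusted p 2.42e-07). Low-VCR (7.81 ± 0.671 CPM, SD, n = 4) and High-VCR (7.75 ± 1.65) did not differ beyond their spread, nor did NC (1.64 ± 0.288) and ALL (1.39 ± 0.430). VCR was highest, at 12.0 ± 3.55 CPM.

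Ptprc had the widest spread of the leukocyte genes. It was at 0, 0, 0.873 and 1.28 CPM in NC and at 1.85, 0, 2.05 and 0.993 CPM in ALL. The VCR libraries held 15.9, 3.95, 9.44 and 5.40 CPM, Low-VCR 2 to 4 held 0, 5.18 and 0.436, and those of High-VCR 9.22, 3.11, 11.9 and 4.08. Low-VCR 1 lay between VCR 3 and VCR 4. Low-VCR 2 and 4 lay within the untreated range, while the other 10 treated libraries lay above it. Ptprc rose in VCR relative to NC (log2 fold change 3.85 ± 1.13, adjusted p 0.00509) and in High-VCR against ALL (2.52 ± 1.04, adjusted p 0.0376). Its change in Low-VCR against ALL was 1.48 ± 1.05 (adjusted p 0.226). The High-VCR call was lost with DESeq2 (adjusted p 0.0893), with limma voom (0.0595), without the filter on low genes (0.0507), with a term for the library-number range (0.0593) and without ALL 1, 2 or 4 or High-VCR 1 or 3 (adjusted p 0.0525 to 0.0927). Scaling the libraries to Sertoli cell genes moved this change to 0.51 (adjusted p 0.666). How libraries at 0 counts arise beside others of the same group with many counts, for Ptprc and also for Ebf1, is not given in the sources used here, and the wide errors of both genes rest on these libraries. Over all genes whose next-lowest library in a group had at least 50 counts, 0.153% to 0.363% had 1 library at 0. In order of means, VCR (8.68 ± 5.36 CPM, SD, n = 4) stood above High-VCR (7.08 ± 4.18), Low-VCR (3.41 ± 3.86), ALL (1.22 ± 0.936) and NC (0.537 ± 0.642), and no step between neighbours passed the test.

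Cd72 had no count in any of the 8 untreated libraries. It had 72, 35, 41 and 53 counts in VCR (5.49, 2.66, 2.69 and 4.03 CPM), 25, 8, 24 and 8 in Low-VCR (1.73, 0.613, 1.57 and 0.581 CPM) and 41, 24, 0 and 37 in High-VCR (2.78, 1.56, 0 and 2.07 CPM). All treated libraries but High-VCR 3 therefore lay above the untreated ones. With 3 counts put in place of 0 for the untreated group, the summed level was 50.4-fold higher in VCR than in NC (edgeR adjusted p 0.000307). It was 14.7-fold higher in Low-VCR (adjusted p 0.00674) and 20.6-fold higher in High-VCR (adjusted p 0.00201) than in ALL. The exact 95% intervals of these ratios, taken with the untreated counts of 0, began at 40.6, 11.6 and 16.5. Ratios and bounds of this kind cover counting error only. Among treated groups the order was VCR (3.72 ± 1.34 CPM, SD, n = 4), High-VCR (1.60 ± 1.18) and Low-VCR (1.12 ± 0.611), and no pair of them passed the test (adjusted p 0.0989 to 0.720).

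**Figure D1:**
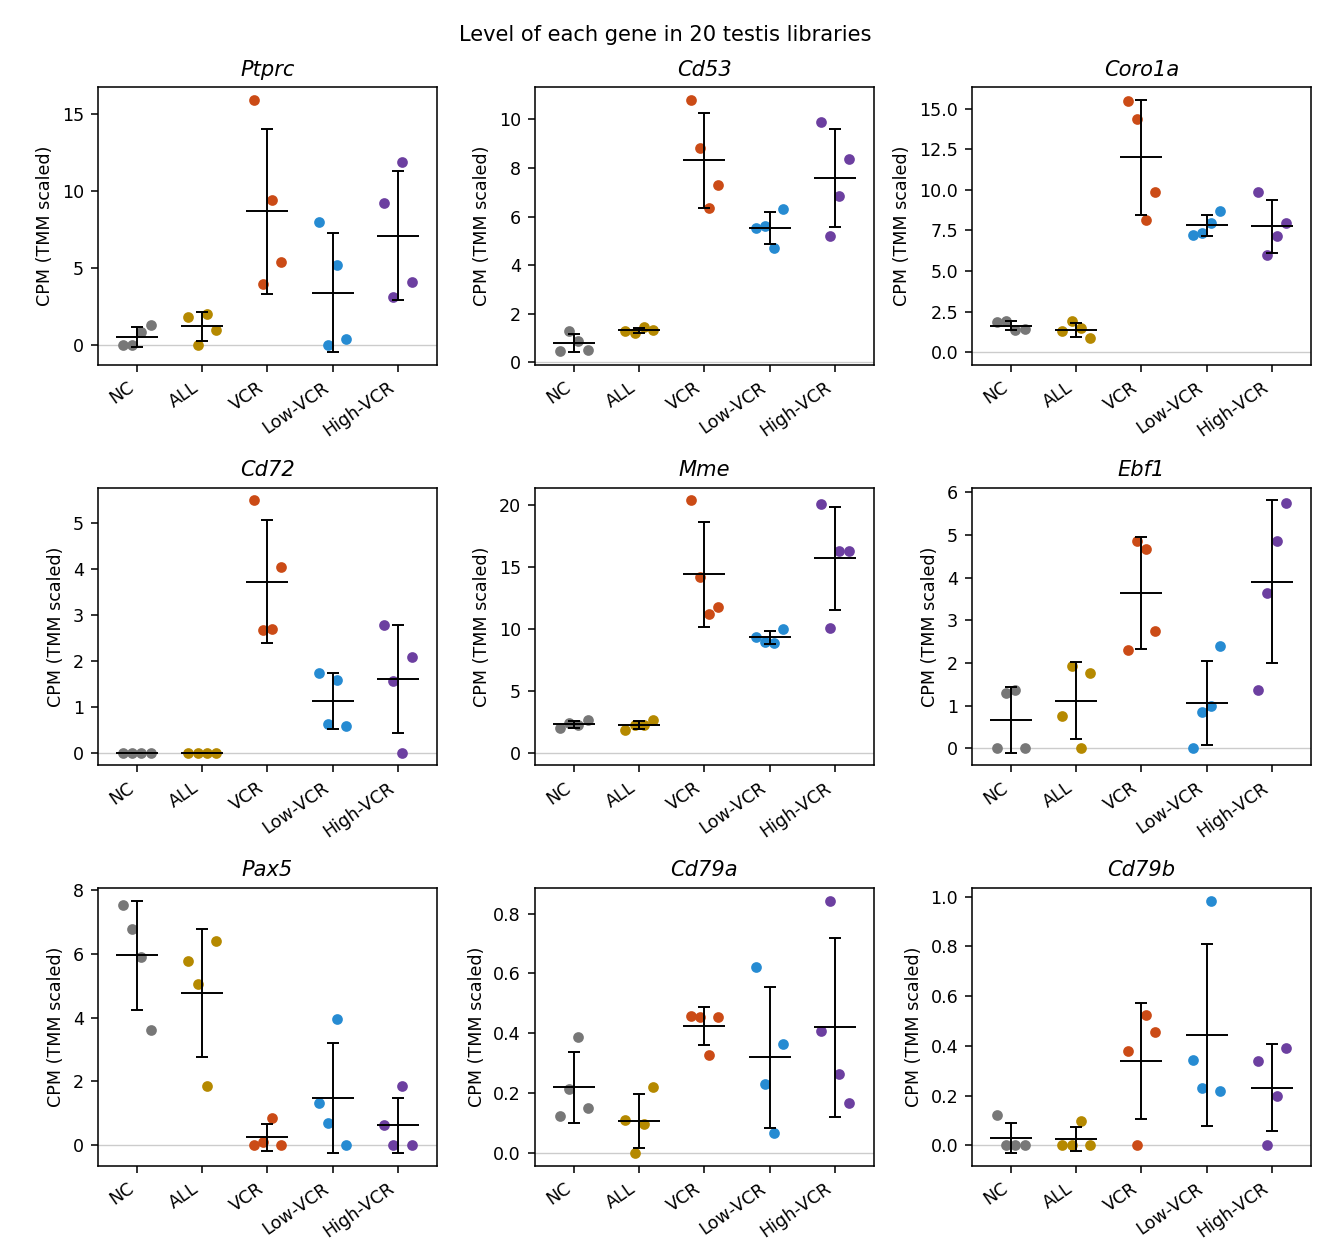
Each panel plots 1 gene in CPM, with 1 point per library, the mean as a horizontal bar and the SD as an error bar (n = 4 libraries per group). Cd53, Coro1a and Mme separate all 12 treated libraries from all 8 untreated ones, and the share of all genes that do so was not counted. Cd72 is at 0 in the 8 untreated libraries, Pax5 is highest in NC and ALL, and Cd79a and Cd79b stay below 1 CPM.

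Mme and Ebf1, B-ALL or B-lineage markers that are also made by stromal cells, were higher in VCR than in NC, and only Mme rose in all treated groups. Mme was at 1.95, 2.37, 2.23 and 2.63 CPM in NC and at 1.85, 2.23, 2.25 and 2.65 CPM in ALL. The VCR libraries held 20.4, 14.2, 11.2 and 11.8 CPM, those of Low-VCR 9.38, 8.97, 8.86 and 10.0, and those of High-VCR 20.1, 10.1, 16.3 and 16.3. The untreated libraries lay within a narrow range, far below every treated one. Mme rose 6.22-fold in VCR relative to NC (log2 fold change 2.64 ± 0.22, adjusted p 4.25e-08). Against ALL it rose 4.14-fold in Low-VCR (2.05 ± 0.22, adjusted p 1.71e-06) and 6.98-fold in High-VCR (2.80 ± 0.23, adjusted p 5.49e-08). High-VCR (15.7 ± 4.17 CPM, SD, n = 4) and VCR (14.4 ± 4.21) did not differ beyond their spread, and Low-VCR stood at 9.31 ± 0.526 CPM.

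Ebf1 varied more from library to library. It had 0, 12, 14 and 0 counts in NC and 7, 19, 0 and 16 in ALL, at most 1.92 CPM. The VCR libraries had 30, 64, 71 and 36 counts (2.29 to 4.86 CPM), and those of Low-VCR 0, 11, 15 and 33 (at most 2.40 CPM). High-VCR 1 to 3 had 20, 56 and 74 counts, and High-VCR 4 was highest, at 5.75 CPM. VCR lay above all NC libraries, whereas Low-VCR covered the same range as the untreated groups apart from 1 library. Ebf1 rose in VCR relative to NC (log2 fold change 2.47 ± 0.97, adjusted p 0.0282), a call lost without NC 1, NC 4 or VCR 2 (adjusted p 0.0705, 0.0746 and 0.0580). It did not pass in Low-VCR (-0.07 ± 0.97, adjusted p 0.952) or High-VCR (1.81 ± 0.91, adjusted p 0.0812) relative to ALL. The difference between these responses and that of VCR did not pass either (-2.54 ± 1.38, adjusted p 0.250, and -0.65 ± 1.33, adjusted p 0.970). High-VCR (3.90 ± 1.91 CPM, SD, n = 4) and VCR (3.63 ± 1.31) were the highest groups, followed by ALL (1.11 ± 0.903), Low-VCR (1.06 ± 0.993) and NC (0.662 ± 0.765).

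Stromal and vascular genes rose in the 3 comparisons of treated with untreated testis, as Mme did, while Ebf1 passed in VCR relative to NC alone among them. Over all tested genes, 42.1% rose in VCR relative to NC, 36.4% in Low-VCR and 42.4% in High-VCR relative to ALL. These shares also stand beside the macrophage and Sertoli counts below. In VCR relative to NC, 13 of 13 Leydig cell genes, 12 of 14 endothelial genes and 14 of 15 peritubular, pericyte and fibroblast genes rose and none fell, with medians of 2.65, 2.00 and 1.76. In Low-VCR relative to ALL 12, 9 and 14 of them rose, with medians of 1.87, 1.33 and 1.39, and in High-VCR relative to ALL 13, 12 and 14, with medians of 2.40, 1.79 and 1.68. The part of these cell types in the levels of Mme and Ebf1 was not tested.

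Pax5 was the only one of the 7 tested genes that was higher in untreated testis. It was at 7.55, 6.78, 5.91 and 3.60 CPM in NC and at 5.77, 5.06, 1.86 and 6.40 CPM in ALL. The VCR libraries held 0, 0.0759, 0.852 and 0 CPM, those of Low-VCR 1.31, 0.690, 3.94 and 0, and those of High-VCR 0.610, 0, 1.84 and 0. No count was found in 5 of the 12 treated libraries, and no untreated library had fewer than 19. Pax5 fell by 4.53 ± 1.18 on the log2 scale in VCR relative to NC (23.0-fold, adjusted p 0.00212) and by 2.97 ± 1.04 in High-VCR relative to ALL (7.81-fold, adjusted p 0.0173). The log2 fold change in Low-VCR relative to ALL was -1.66 ± 0.96 (adjusted p 0.146), and it was -2.81 (adjusted p 0.0450) without Low-VCR 3, the library with 60 counts. The change also passed with limma voom (-2.75, adjusted p 0.0304) and with the replicate block (-2.53, 0.0439). Scaling to Sertoli or macrophage genes gave -3.34 (adjusted p 0.00468) and -3.68 (0.00218). In VCR relative to NC it was -7.40 without VCR 3, which held 13 of the 14 counts of that group. The order of means ran from NC (5.96 ± 1.71 CPM, SD, n = 4) through ALL (4.77 ± 2.02), Low-VCR (1.48 ± 1.72) and High-VCR (0.613 ± 0.868) to VCR (0.232 ± 0.415), and no step between neighbours passed.

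Spermatid genes fell in each of the 3 comparisons, though only 4 of 20 did in Low-VCR relative to ALL. Pax5 did not pass there either. In the list of 20 genes of round and elongating spermatids, 20 fell in VCR relative to NC (median log2 fold change -2.44), 4 in Low-VCR relative to ALL (median -1.02) and 13 in High-VCR relative to ALL (median -1.53), and none rose. Over all tested genes the median changes were 0.10, 0.08 and 0.16. Of these genes, 35.6% fell in VCR relative to NC and 30.5% in High-VCR relative to ALL. In Low-VCR relative to ALL 51.6% of them passed and 36.4% rose. Within the treated libraries, those with at least 1 CPM of Pax5 were Low-VCR 1, Low-VCR 3 and High-VCR 3. Their spermatid scores (mean log2 CPM of the list) were 8.56, 8.43 and 7.89. Scores of the other treated libraries ran from 2.98 (VCR 1) to 8.34 (Low-VCR 2). Low-VCR 4 and High-VCR 2, with no count of Pax5, had scores of 8.01 and 7.57. On the log2 scale the level of Pax5 minus this score was -6.88 ± 0.44 (SD, n = 4) in NC and -7.39 ± 0.8 in ALL. Treated groups stood at -9.12 ± 2.15 (High-VCR), -8.73 ± 2.19 (Low-VCR) and -8.43 ± 1.73 (VCR), each with at least 1 library at 0 counts. Such libraries make the values depend on the prior count, a small count added before taking logs, here 1. With a prior count of 3 the means were -6.84 (NC), -7.34 (ALL), -7.35 (VCR), -8.21 (Low-VCR) and -8.23 (High-VCR). VCR was then level with ALL, so no fall of Pax5 beyond the spermatid score is read from the VCR values. The part of spermatid content in the Pax5 values was not tested.

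**Figure D2:**
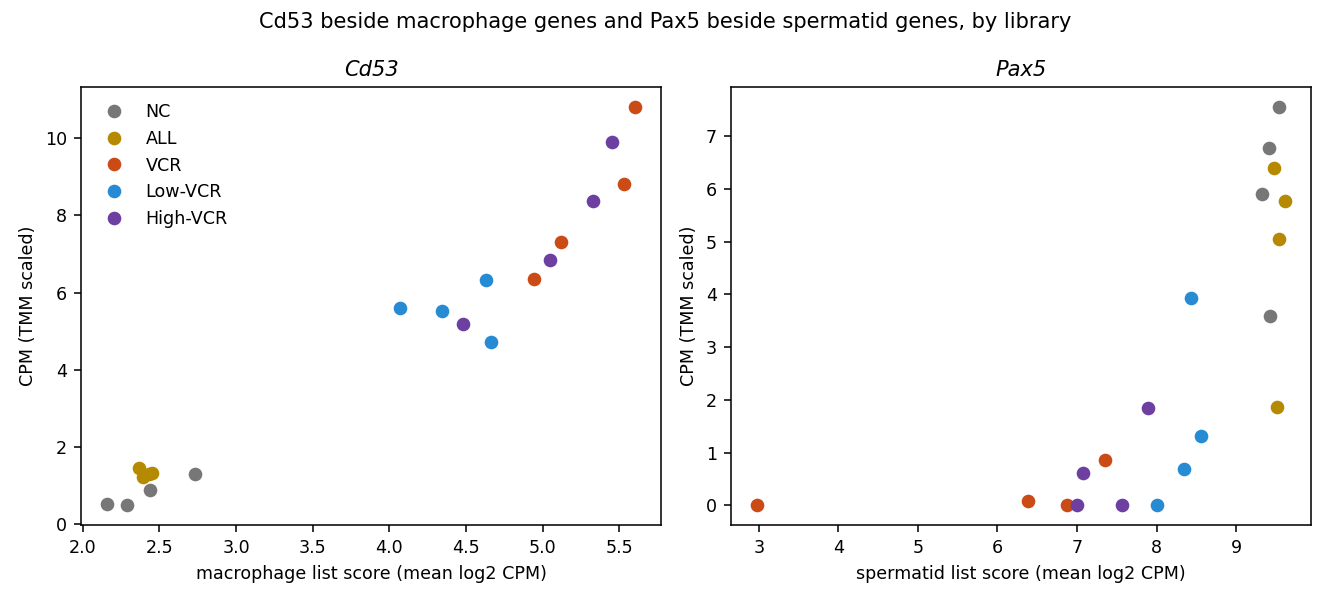
The left panel plots Cd53 (CPM) against the mean log2 CPM of the macrophage and monocyte list, and the right panel Pax5 (CPM) against that of the spermatid list, with 1 point per library coloured by group. The treated libraries lie at the upper right for Cd53, at 4.72 to 10.8 CPM. For Pax5 they lie to the left, at 0 to 3.94 CPM, with Low-VCR 3 above NC 4 (3.60 CPM) and ALL 3 (1.86 CPM).

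Counted over the members, 7 of the 7 tested genes passed in VCR relative to NC, 6 higher and 1 lower, where 77.7% of all tested genes passed (42.1% higher, 35.6% lower). In Low-VCR relative to ALL 4 of 7 passed, all higher (51.6% of all genes passed, 36.4% higher), and in High-VCR relative to ALL 6 of 7 passed, 5 higher and 1 lower (72.9% of all genes passed, 42.4% higher and 30.5% lower). The split of the calls over all genes depended on the scaling. In VCR relative to NC, 6960 of 12851 called genes were higher with TMM, 8309 of 12789 with library size alone, 1379 of 13601 with Sertoli scaling and 203 of 14964 with macrophage scaling. In Low-VCR relative to ALL these counts were 6016 of 8527, 7239 of 8109, 458 of 13287 and 213 of 14010, with 5080 of 9605 for DESeq2 size factors, and in High-VCR relative to ALL 7015 of 12054, 8137 of 11861, 844 of 13408 and 223 of 14430. With most or many genes passing, these counts are not read as particular to the members. The median log2 fold change of the 7 was 2.88, 2.05 and 2.50 in these comparisons, against 0.10, 0.08 and 0.16 over all genes.

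**Figure D3:**
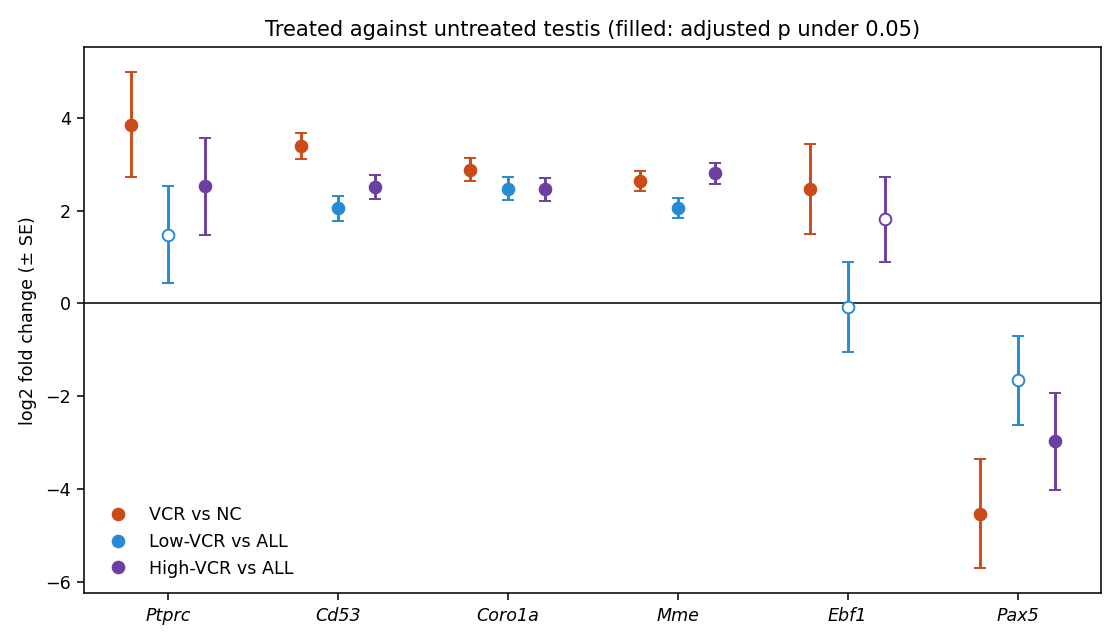
Log2 fold changes with standard errors (edgeR, n = 4 libraries per group) of 6 genes in 3 comparisons of treated with untreated testis. Filled points have an adjusted p under 0.05, open points do not, and Cd72 is left out because its untreated libraries are all at 0. Ptprc, Ebf1 and Pax5 have standard errors near 1, and Cd53, Coro1a and Mme errors of 0.22 to 0.28.

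The fold changes of Cd53, Coro1a, Ptprc and Mme lay around the median of the macrophage genes, with Ptprc lower in Low-VCR (1.48 ± 1.05). Those of Mme and Coro1a also lay around the Leydig cell medians of 2.65, 1.87 and 2.40, so nearness to a median is not particular to macrophage genes. In the list of 22 macrophage and monocyte genes, 20 were tested. Of these, 19 rose and 1 fell in VCR relative to NC (median log2 fold change 3.24), 18 rose and 1 fell in Low-VCR relative to ALL (median 2.27), and 19 rose and 1 fell in High-VCR relative to ALL (median 2.77). The lysozyme gene Lyz2, a myeloid marker, gave 3.56 ± 0.24, 2.40 ± 0.23 and 2.86 ± 0.24. C1qa, a complement chain made by macrophages, rose by 3.23 ± 0.23, 2.45 ± 0.22 and 2.81 ± 0.23. When the libraries were scaled to the summed macrophage genes in place of TMM, the VCR against NC change became 0.01 for Coro1a (adjusted p 0.964), -0.22 for Mme (0.177) and 1.02 for Ptprc (0.392). Cd53 alone among these 4 still passed, at 0.56 (adjusted p 0.0282). In High-VCR relative to ALL the same scaling gave -0.03 for Cd53, -0.04 for Coro1a and -0.07 for Ptprc (adjusted p 0.896, 0.852 and 0.952) and 0.27 for Mme (0.107). In Low-VCR relative to ALL it gave 0.06 for Cd53 and 0.05 for Mme (adjusted p 0.833 and 0.786), and 0.49 for Coro1a (0.0224). This scaling, chosen after the data had been seen, moved the median of all genes by -2.80 in VCR and -2.45 in High-VCR, and by less in Low-VCR.

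Sertoli cell genes, a somatic reference, also gained share, and against them part of the difference remained. All 22 Sertoli genes rose in each of the 3 comparisons, with medians of 1.92, 1.69 and 1.95 for VCR, Low-VCR and High-VCR. With the libraries scaled to these genes, Cd53 (1.58, adjusted p 7.11e-06), Coro1a (1.04, adjusted p 5.2e-05) and Mme (0.81, adjusted p 0.000128) still rose in VCR relative to NC. Ptprc (2.06, adjusted p 0.105) and Ebf1 (0.71, adjusted p 0.507) no longer passed. In Low-VCR relative to ALL only Coro1a among these genes passed under this scaling (0.78, adjusted p 0.00107), with Cd53 and Mme each at 0.35 (0.151 and 0.0542). In High-VCR relative to ALL, Cd53 (0.54, adjusted p 0.0310), Coro1a (0.52, adjusted p 0.0173) and Mme (0.83, adjusted p 0.000118) passed under it. Pax5 was lower than in the untreated groups under either scaling, with changes of -6.24 and -7.24 in VCR, -3.34 and -3.68 in Low-VCR, and -4.97 and -5.49 in High-VCR for the Sertoli and the macrophage lists. The median of all genes shifted by -1.78, -1.70 and -1.92 under the Sertoli scaling in VCR, Low-VCR and High-VCR.

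**Figure D4:**
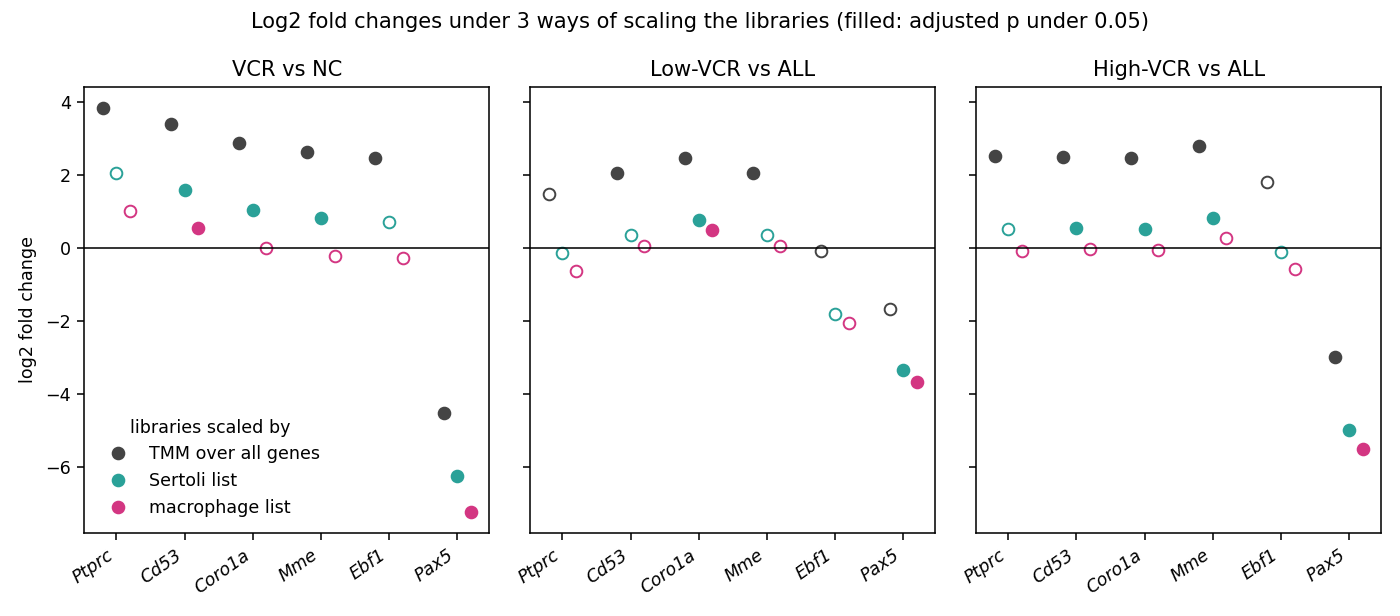
Log2 fold changes of 6 genes in 3 comparisons, with the libraries scaled by TMM over all genes, by the Sertoli list or by the macrophage list, and points filled where the adjusted p was under 0.05. Coro1a in VCR against NC goes from 2.88 to 1.04 and 0.01, while Pax5 goes from -4.53 to -6.24 and -7.24.

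The levels of Mme, Coro1a and Cd53 relative to the macrophage list stayed in a narrow band, that of Ptprc did not, and that of Cd72 has no untreated value because of its 0 counts. On the log2 scale the level of Cd72 minus the mean of the list was -3.44 ± 0.46 (SD, n = 4) in VCR and -4.31 ± 0.76 in Low-VCR, and was -5.16 ± 2.38 in High-VCR with the library at 0. For Cd53 the same difference was -2.70 ± 0.37 in NC and -1.92 ± 0.12 in ALL. It was -2.26 ± 0.09 in VCR, -1.94 ± 0.34 with low and -2.18 ± 0.09 with high leukaemia counts. For Coro1a it stayed between -1.45 ± 0.20 (Low-VCR) and -2.13 ± 0.18 (High-VCR), with NC at -1.64 ± 0.24. For Mme it lay between -1.48 ± 0.19 (VCR) and -1.14 ± 0.12 (High-VCR), the narrowest of these bands, and for Ptprc between -4.23 ± 2.97 (Low-VCR) and -2.37 ± 0.91 (VCR). The group means thus spanned less than 1 log2 unit for Mme, Coro1a and Cd53 and more for Ptprc. A narrow band was not particular to the macrophage list. Relative to the Sertoli list, Mme lay between -3.32 ± 0.11 (NC) and -2.45 ± 0.16 (High-VCR), also less than 1 log2 unit. Coro1a lay between -3.94 ± 0.37 (ALL) and -2.84 ± 0.14 (VCR) and Cd53 between -4.85 ± 0.54 (NC) and -3.34 ± 0.08 (VCR), each more than 1 unit.

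Cd79a and Cd79b stayed near the counting floor in all groups. Cd79a had 1, 2, 4 and 2 counts in NC and 1, 0, 1 and 2 in ALL. The VCR libraries had 6, 6, 5 and 6, those of Low-VCR 9, 3, 1 and 5, and those of High-VCR 6, 13, 4 and 3, at most 0.843 CPM. Cd79b had 1 count in all of NC and 1 in all of ALL. It had 5, 0, 8 and 6 counts in VCR, 5, 3, 15 and 3 in Low-VCR and 5, 0, 3 and 7 in High-VCR, at most 0.984 CPM. The ratio of summed Cd79a counts, per TMM-scaled total, in VCR to NC was 1.92 (exact 95% interval 0.857 to 4.72), that in Low-VCR to ALL 3.05 (1.01 to 12.4) and that in High-VCR to ALL 3.94 (1.37 to 15.5). For Cd79b, against a single count in each untreated group, these ratios were 14.3 (2.27 to 594), 17.6 (2.90 to 723) and 9.09 (1.40 to 383). The intervals cover counting error only. Without the filter on low genes, edgeR gave Cd79b an adjusted p of 0.0255, 0.0218 and 0.0827 in these comparisons and Cd79a 0.254, 0.119 and 0.0400.

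Genes that define B cells gave no common direction. Of 15 such genes, 5 had fewer than 10 counts in every library: Ms4a1 (CD20), Cd22, Igkc, Ighd and Fcer2a. Igkc, the kappa light chain, had 1 count in each of VCR 3 and VCR 4 and none elsewhere. Of the 9 tested, 1 rose and 3 fell in VCR relative to NC, 1 rose and none fell in Low-VCR, and 2 rose and 3 fell in High-VCR relative to ALL, with medians of -0.39, -0.48 and -0.79. Over all tested genes 42.1% rose and 35.6% fell in VCR, and 42.4% rose and 30.5% fell in High-VCR. In Low-VCR 51.6% of all genes passed and 36.4% rose. The falls, near these shares, are not read as particular to B-cell genes. Their summed level was 38.0 to 53.4 CPM in the untreated libraries and 29.4 to 42.8 CPM in the treated ones. Tnfrsf13c, the BAFF receptor, and Fcmr, an IgM receptor, fell in VCR (-1.90 ± 0.50 and -2.24 ± 0.48) and in High-VCR (-1.84 ± 0.49 and -1.40 ± 0.46). Fcrla fell in VCR (-1.77 ± 0.60), Cr2 fell (-1.36 ± 0.30) and Bank1 rose (2.84 ± 0.97) in High-VCR, and Blk and Jchain passed in none of the 3 comparisons.

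Ighm, the constant region of the IgM heavy chain, rose in each of the 3 comparisons of treated with untreated testis. It was at 4.51, 2.58, 2.23 and 0.975 CPM in NC and at 1.09, 3.75, 1.17 and 2.10 CPM in ALL. The VCR libraries held 24.8, 17.7, 12.5 and 14.8 CPM, those of Low-VCR 11.0, 6.59, 13.1 and 9.44, and those of High-VCR 17.1, 7.33, 11.8 and 14.8. Treated and untreated libraries did not overlap. The rises were 2.79 ± 0.43, 2.30 ± 0.43 and 2.65 ± 0.43 on the log2 scale (adjusted p 1.69e-05, 0.000283 and 3.9e-05). The constant region of the T-cell receptor alpha chain, Trac, rose likewise, from 0 to 0.450 CPM in untreated libraries to 2.05 to 7.52 CPM in treated ones (4.10 ± 0.46, 4.79 ± 0.53 and 5.16 ± 0.53). Trbc2, the constant region of its partner beta chain, fell in VCR (-2.63 ± 0.45, adjusted p 4.32e-05) and High-VCR (-1.77 ± 0.42, adjusted p 0.00116). The gene names Ighm and Trac do not tell rearranged from unrearranged transcripts in these counts.

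**Figure D5:**
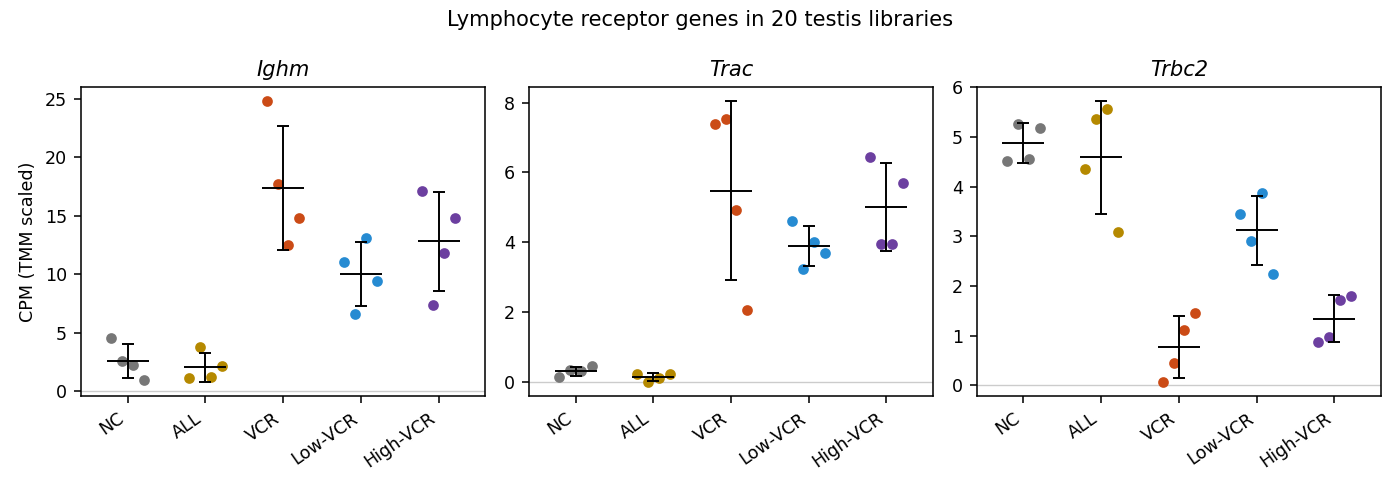
Ighm, Trac and Trbc2 in CPM, with 1 point per library, the mean as a bar and the SD as an error bar (n = 4 per group). Ighm and Trac are higher in all 12 treated libraries than in the 8 untreated ones, and Trbc2 is lower in VCR and High-VCR.

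Genes of early B-cell stages were mixed as well. Of 12 pre-B and pro-B genes, 6 were tested and 4 had fewer than 10 counts in every library. In VCR relative to NC 3 rose and 1 fell (median 0.48), in Low-VCR relative to ALL none rose and 1 fell (-0.19), and in High-VCR 1 rose and 1 fell (0.16). The shares over all tested genes are those given above for the B-cell genes. Rag1, a recombinase subunit, rose in VCR (1.20 ± 0.35, adjusted p 0.00500) and High-VCR (0.88 ± 0.35, adjusted p 0.0294), and Cd24a (1.11 ± 0.34) and the endothelial and blood-stem-cell factor Erg (2.91 ± 1.04) rose in VCR. Bach2, a B-cell repressor, fell in VCR, Low-VCR and High-VCR (-1.78 ± 0.26, -0.64 ± 0.25 and -1.47 ± 0.26). Vpreb3 and Lef1 passed in none of them. Igll1, a surrogate light chain of pre-B cells, had at most 2 counts in any library.

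Partner genes of the members, which are not limited to B cells, were divided. Among all tested genes, 42.1% rose in VCR relative to NC, 36.4% in Low-VCR and 42.4% in High-VCR relative to ALL, and the counts below are given beside these shares. Among 15 genes of B-cell receptor signalling, 10 rose and 2 fell in VCR relative to NC, 7 and 2 in Low-VCR, and 8 and 2 in High-VCR relative to ALL (medians 1.10, 1.15 and 1.15). Syk, a kinase that macrophages also use, rose by 3.08 ± 0.26, 2.50 ± 0.26 and 3.24 ± 0.26, and Fcgr2b, the inhibitory Fc receptor, by 3.34 ± 0.28, 2.09 ± 0.27 and 2.61 ± 0.27. Among 10 tested B-lineage transcription factors other than the members, 5 rose and 2 fell in VCR, 6 and 2 in Low-VCR, and 6 and 1 in High-VCR, with Irf8, a factor of B and myeloid cells, at 3.07 ± 0.33 and Bcl6 at 2.12 ± 0.22 in VCR. Of 8 tested partners and substrates of CD45, 5 rose and 2 fell in VCR, 3 and 1 in Low-VCR, and 4 and 2 in High-VCR, with the kinases Csk at 2.14 ± 0.21 and Fyn at 1.73 ± 0.19 in VCR. Of 18 further pan-leukocyte genes, 13 rose and 4 fell in VCR, 12 and 2 in Low-VCR, and 12 and 3 in High-VCR (medians 2.37, 1.78 and 2.15), with Laptm5 at 3.86 ± 0.26 and Lcp1 at 3.93 ± 0.31 in VCR.

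Gene families of single members showed which relatives moved with them. Of 6 other coronins, 4 rose and 2 fell in VCR. Coro1b, made in many cell types, rose by 1.29 ± 0.14, and Coro2a fell by 2.27 ± 0.27 on the log2 scale. Of 8 tested tetraspanins, 7 rose and 1 fell in VCR, with Tspan4 at 3.03 ± 0.22 and Cd151 at 2.11 ± 0.17. All 6 tested genes listed with Cd72, its ligands and related receptors, rose in each of the 3 comparisons, among them the plexin Plxnb1 (1.80 ± 0.20 in VCR) and the inhibitory receptor Pirb (2.84 ± 0.37). Of 8 peptidases listed with Mme, 3 rose and 2 fell in VCR (median 0.05), with Ece1 at 2.29 ± 0.22 and Anpep at 2.18 ± 0.19.

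Few or none of the listed neutrophil, mast, T and NK cell genes had enough counts to be tested, while most dendritic cell genes did. In VCR the tested neutrophil genes rose, and those of dendritic, T and NK cells moved in both directions. Only 2 of 10 neutrophil genes were tested, Camp and Csf3r, and both rose in VCR (2.61 ± 0.38 and 1.53 ± 0.26), with a summed list level of 1.72 to 3.20 CPM untreated and 5.66 to 12.0 CPM treated. None of 6 mast cell genes was tested, and their sum was at most 1.45 CPM. Of 7 tested dendritic cell genes, 1 rose and 5 fell in VCR, where 42.1% of all tested genes rose and 35.6% fell. Itgax (CD11c) rose from 1.15 ± 0.276 CPM in NC to 7.58 ± 3.48 CPM in VCR (SD, n = 4), and Flt3 fell by 1.44 ± 0.24 on the log2 scale. Of 6 tested genes of T and NK cells, 2 rose (Trac and Cd4, the latter also made by macrophages, 2.14 ± 0.35) and 3 fell in VCR.

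Engraftment without the drug was not accompanied by a called change in the members. In ALL relative to NC, edgeR called 0 of the 7 tested members and 0 of all genes (0.0%). At an unadjusted p under 0.05 there was 1 member, Cd53 (0.75 ± 0.31, p 0.0269, adjusted p 1), and 4.52% of all genes. DESeq2 and limma voom called 0 members, and 19 and 0 genes in all. Whether reads of the human leukaemia cells were removed before counting is not given in the sources used here.

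Among treated groups, few members separated. High-VCR was above Low-VCR for Mme alone (0.75 ± 0.20, adjusted p 0.0327), where 7.81% of all genes passed, 3.13% of all genes higher. The 1292 genes behind that share became 0 without Low-VCR 1 or 3 or High-VCR 1 or 4, 3218 without High-VCR 2, 0 with only the groups compared and 294 with the replicate block. Mme no longer passed when Low-VCR 1, 2 or 3 or High-VCR 1, 3 or 4 was left out (adjusted p 0.0542 to 0.125). Low-VCR was below VCR for Mme (-0.63 ± 0.20, adjusted p 0.0277) and Coro1a (-0.62 ± 0.22, adjusted p 0.0414), where 30.2% of all genes passed, 13.6% of all genes lower. The 5000 genes behind that share became 3072 without VCR 1, 2483 without VCR 2, 2960 without Low-VCR 1 and 1 with only the groups compared. The calls of Mme and Coro1a were both lost without VCR 1 or 2 or Low-VCR 1, 2 or 3 (adjusted p 0.0589 to 0.151), and without VCR 3, Pax5 (5.42, adjusted p 0.0247) and Cd53 (-0.70, adjusted p 0.0301) passed as well. Library numbers of NC and VCR (1 to 8) do not mix with those of the engrafted groups, which fall into a lower and a higher range, so the leukaemia and the number range cannot be told apart here.

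High-VCR and VCR did not separate for any member. EdgeR called 0 of 7, and 1 of all genes (0.00605%). At an unadjusted p under 0.05 there was 1 member, Coro1a (-0.63 ± 0.22, p 0.0100, adjusted p 0.479), and 8.21% of all genes, and DESeq2 and limma voom called 0. Whether the drug response differed with the leukaemia was tested as an interaction, the change from ALL minus the change from NC. EdgeR called 0 members for Low-VCR (5.07% of all genes) and 0 for High-VCR (0.00605%). The 839 genes behind the Low-VCR share ranged from 7 (without ALL 2 or Low-VCR 1) to 2322 (without VCR 3) when 1 library was left out, and were 9 with the replicate block and 4445 with macrophage scaling. Without any 1 NC or ALL library there were at most 179. Cd53 came nearest for Low-VCR (-1.33 ± 0.39, p 0.00295, adjusted p 0.0529). It was the 1 member at an unadjusted p under 0.05 in either interaction, where 25.9% (Low-VCR) and 4.55% (High-VCR) of all genes had such a p. DESeq2 called it for Low-VCR (-1.41, adjusted p 0.0344), while voom called none.

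Within each engrafted range of library numbers, with 2 libraries per group, the means of both treated groups stood above ALL for Cd53, Coro1a, Mme, Cd72 and Ptprc. Single libraries did not all do so. For Ptprc, Low-VCR 2 (0 CPM, lower range) and Low-VCR 4 (0.436 CPM, higher range) exceeded no ALL library of their range. For Cd72, High-VCR 3 of the higher range was at 0, as ALL was. Cd53 averaged 1.26, 5.56 and 7.55 CPM for ALL, Low-VCR and High-VCR in the lower range, and 1.39, 5.52 and 7.60 CPM in the higher one. Mme averaged 2.04, 9.18 and 15.1 CPM in the lower and 2.45, 9.44 and 16.3 in the higher. Coro1a and Cd72 changed order between the treated groups. Coro1a averaged 7.30 CPM in Low-VCR and 7.94 in High-VCR in the lower range, and 8.32 and 7.57 CPM in the higher, and Cd72 averaged 1.17 and 2.17 CPM, then 1.08 and 1.03 CPM. Pax5 averaged 5.41, 1.00 and 0.305 CPM in the lower and 4.13, 1.97 and 0.920 in the higher.

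Genes whose log2 CPM ran most like each member were taken over the 12 treated libraries, which share the drug course and the gain of somatic genes, among 14707 genes. Among the nearest to Cd53 were Arhgap18 (Pearson r 0.99) and Tars (0.98). For Mme they were Plxnc1 and Rps6kb1 (each 0.98) and Rap1b (0.97), and for Coro1a Rom1, Avpi1 (each 0.97) and Sh3bp1 (0.96). Ptprc ran most like Nat8l (0.96), Ldlrad3 (0.93) and C77080 (0.91), and Ebf1 like Fmnl2 (0.92), Ears2 (0.91) and Lix1 (0.88). Pax5 was nearest to Limk1 (0.90) and then to Cyb5d1 and Sgip1 (each 0.86). Cd72 was nearest to Kcnh1 (0.90), Slc8b1 and Ldb2 (each 0.88). These coefficients describe 12 libraries of 3 groups and carry no test.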

How the data were processed

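Libraries were poly(A)-selected and directional, per the labels' protocols. The authors deposited 1 table of whole-number read counts per gene symbol, not normalised, for 20 samples. Trimmomatic 0.39, STAR 2.7.10b, featureCounts of Subread 2.0.3, DESeq2 1.36.0 and the build GRCm39 are named, per the submitters' processing notes; annotation, strand setting and any removal of human reads are not given in the sources used here. Samples were grouped by title. Counts were analysed here in R 4.3.3 with edgeR 4.0.16: TMM scaling, filterByExpr by group (minimum count 10, 16534 of 22066 symbols kept), and 1 robust quasi-likelihood fit of 5 group means over 20 libraries (15 residual degrees of freedom). Genes counted as changed where the p of a pairwise contrast or interaction, adjusted by Benjamini and Hochberg's method for every tested gene, was under 0.05. The steps were also run on simulated data in which few genes changed, up and down alike. That run does not test the scaling where most genes pass, as in VCR relative to NC. Standard errors come from the fold change and its F statistic.

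All 9 members are named in every comparison. From every other list the 2 tested genes with the smallest adjusted p in VCR relative to NC are named, together with B-cell, pre-B and pro-B genes of at least 10 counts in 4 libraries. A gene this rule or the likeness rule would name may be not reported here. Genes singled out beyond that rule were chosen after their values were seen. The members and lists were chosen with earlier results of these data known. List levels are sums of CPM, and scores are means of log2 CPM (prior count 1, or 3 where stated). Alternatives were other scalings (DESeq2 size factors, library size, Sertoli genes and, added after the data were seen, macrophage genes without Aif1, which fell), no filter, 1 CPM in 4 samples, DESeq2 1.42.0, limma voom 3.58.1, only the groups compared, a replicate block, a term for library-number range, and leaving out each library.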

Additional observations from a re-analysis of the deposited data

Results flagged for a closer look

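In 43 gene-by-group sets of 4 libraries, 5 had a library far from the other 3 by Dixon's ratio at its 95% critical value. The rate of 1 in 20 behind that value does not hold for sets of few whole counts. The number of flagged sets is therefore not compared with chance. Pax5 in VCR 3 was at 0.852 CPM (13 counts), with the other VCR libraries at 0 to 0.0759 CPM. Cd79b in Low-VCR 3 was at 0.984 CPM (15 counts), with the others at 0.218 to 0.345 CPM. Cd79a in VCR 3 was at 0.328 CPM (5 counts), below 0.456 to 0.457 CPM in the others, a difference of 1 count. Cd79b in NC 1 (0.122 CPM) and in ALL 3 (0.0977 CPM) each rest on 1 count beside libraries at 0.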

How the results depend on the processing

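The count of members called was within 1.5 times of the reported one in 81 of 93 results under alternatives other than leaving out a library. Comparisons with 0 members called in both fits are among these 81, and a like count can hold other genes. In Low-VCR relative to ALL, Sertoli scaling lost Mme and Cd53 (edgeR adjusted p 0.0542 and 0.151) and gained Pax5 (0.00468). Scaling to macrophage genes left 3 called members in VCR relative to NC and 2 in High-VCR relative to ALL. For High-VCR relative to Low-VCR no member passed with Sertoli scaling, without a filter, with only the groups compared or with the replicate block (0 in each). For Low-VCR relative to VCR 0 passed with Sertoli scaling or only the groups compared, and 1 with macrophage scaling, without a filter or with the replicate block. DESeq2 called 1 member in the Low-VCR interaction. Leaving out 1 library gave 6 to 7 members in VCR relative to NC, 4 to 5 in Low-VCR and 5 to 6 in High-VCR relative to ALL, 0 to 1 in High-VCR relative to Low-VCR, 0 to 4 in Low-VCR relative to VCR, 0 to 1 in the Low-VCR interaction and 0 elsewhere. The cause of these changes was not tested.

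The sign turned for these log2 fold changes. With macrophage scaling, VCR relative to NC gave -0.22 for Mme and -0.27 for Ebf1. The same scaling gave Ptprc -0.62 in Low-VCR relative to ALL, and Coro1a -0.04, Cd53 -0.03, Ebf1 -0.58 and Ptprc -0.07 in High-VCR relative to ALL. It gave Cd72 -0.02 and Cd53 -0.09 in High-VCR relative to Low-VCR, Mme 0.12, Coro1a 0.15 and Cd53 0.16 in Low-VCR relative to VCR, Cd53 0.07 in High-VCR relative to VCR, and Mme 0.27 and Coro1a 0.48 in the Low-VCR interaction. Sertoli scaling gave Mme 0.14 in ALL relative to NC, Ptprc -0.14 in Low-VCR and Ebf1 -0.11 in High-VCR relative to ALL. Library size alone gave Ebf1 0.17 in Low-VCR relative to ALL and -0.000891 in High-VCR relative to VCR, and Coro1a 0.03 in High-VCR relative to Low-VCR. Limma voom gave Cd72 -0.46 in High-VCR relative to Low-VCR, and the replicate block gave Ebf1 -0.04 in High-VCR relative to VCR.

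Leaving out 1 library turned the sign within these ranges: Mme in ALL relative to NC (-0.13 to 0.04), Ebf1 in Low-VCR relative to ALL (-0.85 to 0.34), Coro1a in High-VCR relative to Low-VCR (-0.15 to 0.09) and Pax5 in the High-VCR interaction (-0.04 to 4.43). In High-VCR relative to VCR it did so for Pax5 (-0.35 to 4.11), Mme (-0.02 to 0.34), Cd53 (-0.29 to 0.02), Ebf1 (-0.15 to 0.38) and Ptprc (-0.67 to 0.17). None of these had passed the test.

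Replicate numbers are not shown to pair the samples: deviations of same-numbered libraries correlated at -0.38 to 0.53, and in no comparison was every pair above 0.1. With the replicate block Pax5 also passed in Low-VCR relative to ALL (-2.53, adjusted p 0.0439). Depth limits Cd79a and Cd79b, whose highest library had 15 counts.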
